A study of Mus musculus with 9 samples.

Results

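Hormones of the gut and the enzymes that start serotonin synthesis were examined in sorted cells of the adult mouse pancreas after viral induction. These are called induced cells here, and 22% of them were insulin-positive. The group comprised 8 genes: Cck, Gast, Gip, Sct, Ghrl, Tac1, Tph1 and Tph2. They were taken by gene symbol from the array annotation, and all 8 were present, with 9 of the 24613 probes (8 of 15967 genes). The group was put together with its levels on these same arrays in view, so the levels of its members are described here and not tested. Illumina bead arrays had been run on 3 groups of 3 samples, each measuring the RNA of many cells at once.

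The induced samples were about 5000 GFP-positive cells each, sorted from the pancreas of rag-/- mice (which lack mature T and B lymphocytes) 1 month after infection with an adenovirus labelled M3, and 22% of the sorted cells were insulin-positive by the labels. The labels do not spell out M3. As published elsewhere, the name covers the transcription factor genes Pdx1, Neurog3 and Mafa, delivered to exocrine cells. The islet samples were 4 to 5 hand-picked islets of pdx-gfp transgenic mice, which also hold alpha, delta, PP and vessel cells. The non-islet samples were about 10000 cells of the pancreas left after islet removal from animals whose label reads pdxa-gfp. Ages were not given. Mouse line, infection and sorting thus differ together between the induced samples and both other groups, and their effects cannot be told apart. Nothing says that the 3 samples of a group came from separate animals, so a p-value here reflects only how these 3 samples vary, and that variation may be technical.

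Enteroendocrine cells are the scattered hormone cells of the gut lining, and in the mouse they arise, like islet cells, from progenitors that switch on the transcription factor Neurog3. Each class is named by its main product: cholecystokinin in I cells, gastrin in G cells, glucose-dependent insulinotropic polypeptide (GIP) in K cells, secretin in S cells, ghrelin in X/A-like cells, and serotonin with tachykinins in enterochromaffin cells. Gastrin and ghrelin are also made in the developing pancreas. Tryptophan hydroxylase is the rate-limiting step of serotonin synthesis. Tph1 encodes the form of the gut and the pineal gland, also made by mouse islets in pregnancy, and Tph2 the form of neurons.

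The deposited intensities were background-subtracted, so values near or below 0 mean no signal over background. A probe was counted as above background on an array when its value exceeded 1.64 times the array's noise SD, a limit of 2.43 to 2.56 on induced arrays, 3.10 to 3.37 on islet arrays and 7.24 to 7.93 on non-islet arrays. The noisier non-islet arrays had 9210 to 9933 probes above background, against 13476 to 13689 on induced and 13527 to 13764 on islet arrays. Levels of different probes were not compared with each other, apart from sums over marker lists and the choice of the brightest probe of a gene. Over 6 measured beta cell genes the summed intensity was 7328 to 7837 on induced, 17083 to 20093 on islet and 75.7 to 103 on non-islet arrays. Of these genes 5 were above background on all 3 induced arrays. The other, Ucn3, was so on 1 of 3, with a mean of 1.42 against 863 in islets. Their quantile-normalized log2 differences to islets ran from -0.68 (Ins2) to -5.95 (Ucn3). Over 7 acinar enzyme genes the summed intensity was 31430.4 to 33582 in induced samples, 38532 to 44525 in islets and 133575 to 145799 in non-islet samples. Acinar transcripts were thus present in every group. Marker sums here and below are of deposited values. On the quantile-normalized log2 scale used for differences, induced minus non-islet was 0.06 for Ctrb1, -0.10 for Cela1, 0.13 for Cpa1 and -0.22 for Cel. It was -0.39 for Amy2a5, -0.46 for Cpb1 and -2.13 for Prss2. Islet minus non-islet was 0.02, 0.03, 0.17, 0.05, -0.05, 0.06 and -2.45 in the same gene order. Quantile normalization gives every array the same distribution of values, so differences near 0 of such bright probes do not show equal levels.

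Cck, Gast and Tph1 were bright on every induced array and under the background limit on every array of both other groups. Gip and Sct were bright on the induced arrays with a faint signal in islets, and Ghrl, Tac1 and Tph2 were dim throughout. Above background on all 3 induced arrays were 8 of 8 members, a state that 56.3% of all genes on the array shared. Above background on all 3 induced arrays and on none of the 6 others were 5 of 8 (Cck, Gast, Tph1, Ghrl and Tac1), against 2.18% of all genes. As the members were chosen from these values, nothing is read from either share. In RNA of many cells, more cells with a transcript and more transcript per cell cannot be told apart. Nor can it be told whether the 22% insulin-positive cells or the other sorted cells carried a transcript.

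Gast encodes gastrin, the hormone that drives acid secretion by the stomach. Its probe read 376, 355 and 458 on the induced arrays, 0.569, 2.28 and -0.183 on the islet arrays, and 2.40, 2.65 and 1.33 on the non-islet arrays. All 3 induced arrays lay far above all 6 others, none of which exceeded its background limit. Against those limits gastrin was at least 23.0-fold higher in induced cells than in islets and at least 15.9-fold higher than in non-islet cells. These bounds, and all log2 differences here, are on the scale of log2(quantile-normalized signal + 12), which understates the change of dim probes.

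Cck encodes cholecystokinin, which releases bile and pancreatic enzymes after a meal. Its probe read 259, 295 and 213 in induced cells, -0.227, 1.09 and 0.0407 in islets, and 0.628, 1.52 and -1.27 in non-islet cells. The induced arrays stood apart from all others, while islets and non-islet cells overlapped and gave no signal over background on any of their 6 arrays. The transcript was at least 14.8-fold higher in induced cells than in islets and at least 10.3-fold higher than in non-islet cells.

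Tph1 read 183, 169 and 131 in induced cells, with an SD of 26.5 around a mean of 161. It read -1.57, -2.05 and -1.62 in islets and -3.01, 3.11 and 0.627 in non-islet cells, below the limit on each of these arrays. The bounds were at least 9.60-fold over islets and at least 6.65-fold over non-islet cells. The order of the remaining groups is not defined for Gast, Cck or Tph1, since both lay under their limits.

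Gip encodes the incretin of K cells, which raises insulin release after a meal. It read 231, 237 and 265 in induced cells, 9.85, 5.88 and 5.84 in islets, and 8.60, 8.51 and 4.56 in non-islet cells. It was above background on 3 of 3 islet arrays and on 2 of 3 non-islet arrays, so it was not confined to the induced cells. The non-islet detections lay close to their limits, at 8.60 against 7.29 and 8.51 against 7.93. The log2 difference was 3.53 to islets and 3.32 to non-islet cells, and islets and non-islet cells overlapped.

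Sct encodes secretin, the hormone that makes duct cells secrete bicarbonate. It read 122, 120 and 123 in induced cells, the smallest spread among the bright members in proportion to the mean (SD 1.73). Islets read 8.35, 5.20 and 6.60, above background on all 3 arrays, and non-islet cells 1.04, -0.251 and -0.511, above it on none. The 3 groups did not overlap, with induced cells highest and islets between. The log2 difference to islets was 2.63, and induced cells were at least 5.17-fold over non-islet cells.

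Ghrl, the ghrelin gene, had 2 probes for one transcript accession, and they disagreed. The first read 4.81, 4.01 and 4.72 in induced cells, 2.39, 1.54 and 2.74 in islets, and 3.79, 6.66 and 6.52 in non-islet cells. The second read 10.3, 7.50 and 8.97 in induced cells, -2.43, -0.341 and -1.01 in islets, and -5.22, -5.82 and 0.550 in non-islet cells. By the second probe the induced arrays stood apart from all others, at least 1.44-fold over islets, whereas by the first they overlapped the non-islet arrays.

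Tac1, which encodes substance P and neurokinin A, read 3.90, 4.74 and 5.82 in induced cells, 3.16, 2.35 and 2.43 in islets, and 2.07, 5.84 and -1.53 in non-islet cells. Its lowest induced value was 3.90, against a limit of 2.49 on that array, and its highest islet value of 3.16 lay just outside the limit of 3.37 there. At a limit of 3 noise SD the count of members seen in induced cells alone was 4, without Tac1. The induced values of Tac1 and of the first Ghrl probe were also lower than the limit of every non-islet array, so a signal of the same size could not have been seen there. Those of the second Ghrl probe (10.3, 7.50 and 8.97) lay near the non-islet limits of 7.24 to 7.93. No bound over non-islet cells could be given for it, so its absence there is not established.

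Tph2 read 17.1, 15.2 and 15.8 in induced cells, 7.28, 5.87 and 9.19 in islets, and -5.04, -10.1 and -3.21 in non-islet cells. The 3 groups did not overlap and followed that order, with a log2 difference of 0.58 between induced cells and islets and at least 1.29-fold over non-islet cells. Both tryptophan hydroxylase probes thus had their highest values on the induced arrays, Tph1 from no signal in islets and Tph2 from a dim one.

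**Figure D1:**
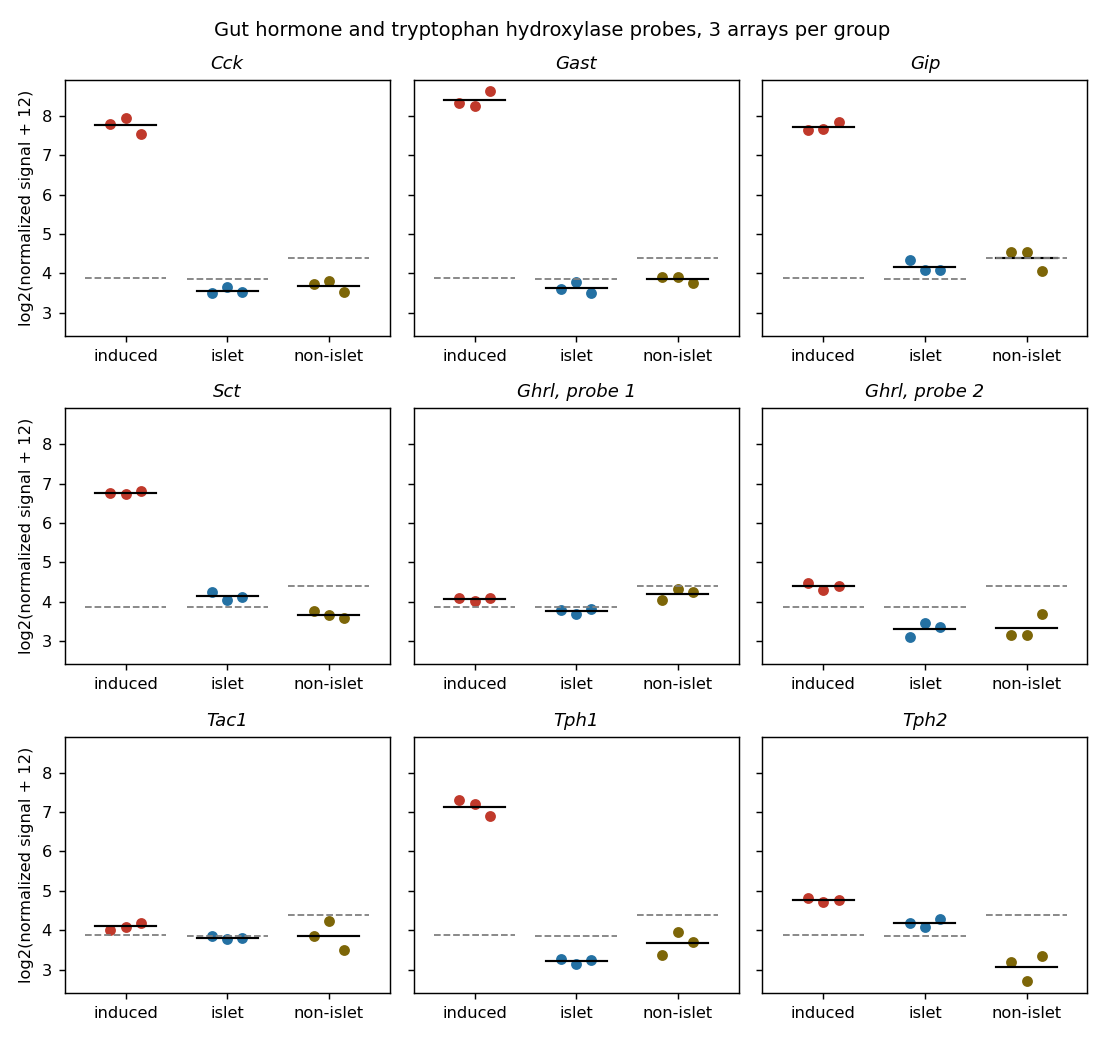
Signal of the 9 probes of the 8 genes on each array, as log2(normalized signal + 12). Points are arrays, black bars are means of 3 arrays, and dashed grey lines are the mean background limit of the group. The induced arrays of Cck, Gast, Gip, Sct and Tph1 sit far above the other 6, while Ghrl, Tac1 and Tph2 stay near the limits.

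Promoter sequence is shown for the 5 bright members, since their levels were high together in the induced samples and the factors named for M3 bind short DNA motifs. Windows of 250 bases before the start site were taken from RefSeq (GRCm38.p6), where all 8 members had an entry. Capitals mark E-boxes (CANNTG), the motif class bound by Neurog3 and Neurod1 with their partners. Sequences are written 5' to 3' on the gene's own strand, and Tph1 has 2 annotated starts.
Cck, chr9:121495695-121495944, minus strand: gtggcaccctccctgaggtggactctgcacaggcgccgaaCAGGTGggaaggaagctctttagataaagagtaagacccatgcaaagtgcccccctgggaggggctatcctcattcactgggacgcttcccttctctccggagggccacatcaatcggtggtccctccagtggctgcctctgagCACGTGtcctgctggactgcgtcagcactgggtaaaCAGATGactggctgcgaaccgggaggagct
Gast, chr11:100334157-100334406, plus strand: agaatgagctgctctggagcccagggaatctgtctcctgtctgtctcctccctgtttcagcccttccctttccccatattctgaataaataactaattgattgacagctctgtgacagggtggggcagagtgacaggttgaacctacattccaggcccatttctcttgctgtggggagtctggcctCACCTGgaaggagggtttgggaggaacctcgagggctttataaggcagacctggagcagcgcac
Gip, chr11:96024295-96024544, plus strand: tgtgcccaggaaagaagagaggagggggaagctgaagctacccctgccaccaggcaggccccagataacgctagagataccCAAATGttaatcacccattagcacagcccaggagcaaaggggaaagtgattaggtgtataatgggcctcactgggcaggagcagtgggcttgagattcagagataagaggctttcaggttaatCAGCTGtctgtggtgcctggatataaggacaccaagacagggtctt
Sct, chr7:141279134-141279383, minus strand: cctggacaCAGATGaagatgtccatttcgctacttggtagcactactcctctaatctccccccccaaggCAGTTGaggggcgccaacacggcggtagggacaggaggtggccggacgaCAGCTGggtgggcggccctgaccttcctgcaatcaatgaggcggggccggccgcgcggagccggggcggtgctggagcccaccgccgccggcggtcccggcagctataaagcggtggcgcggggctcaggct
Tph1, outer start, chr7:46672538-46672787, minus strand: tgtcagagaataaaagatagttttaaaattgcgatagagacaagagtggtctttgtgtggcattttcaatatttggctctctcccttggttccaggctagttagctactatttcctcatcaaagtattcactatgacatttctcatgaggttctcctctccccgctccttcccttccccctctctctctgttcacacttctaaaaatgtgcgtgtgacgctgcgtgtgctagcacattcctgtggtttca
Tph1, inner start, chr7:46667378-46667627, minus strand: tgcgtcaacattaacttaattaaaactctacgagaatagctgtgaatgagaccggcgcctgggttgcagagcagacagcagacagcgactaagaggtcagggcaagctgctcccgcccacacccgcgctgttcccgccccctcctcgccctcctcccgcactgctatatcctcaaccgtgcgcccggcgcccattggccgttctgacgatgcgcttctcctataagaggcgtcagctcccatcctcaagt

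Cck and Sct held 3 E-boxes each, Gip 2, Gast 1, and both windows of Tph1 none. Of 32851 RefSeq windows of this length 66.2% held at least 1. The homeodomain core TAAT, searched on both strands with overlapping matches counted separately, occurred 5 times in Gip, 3 times at the inner Tph1 start, once in Gast and Sct, and nowhere in Cck or at the outer Tph1 start. Of all windows 54.9% held it. Pdx1 binds TAAT cores, and in the mouse it is needed for normal numbers of K cells. The core TGACG of the cAMP response element occurred 3 times at the inner start of Tph1, once at its outer start and once in Cck, against 17.8% of all windows with any. These matches describe the letters and say nothing on binding.

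The loci lie apart in the genome. Gip (GRCm38, chr11:96024532-96030831) and Gast (chr11:100334407-100336997) share a chromosome, as do Sct (chr7:141278329-141279174) and Tph1 (chr7:46644641-46672537), and Ghrl (chr6:113716119-113719911) and Tac1 (chr6:7555061-7562978). Cck lies at chr9:121489824-121495694 and Tph2 at chr10:115078641-115185022. Where in the transcript each probe binds is not given in the sources used here.

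For each member the nearest protein-coding gene with a probe on either side was looked up, 16 genes in all, of which 12 passed the filter on dim probes (detected on 3 of 3 arrays in some group). Between induced cells and islets 6 of the 12 were higher, 5 were lower and 1 was not called (limma, Benjamini-Hochberg adjusted p under 0.05), against 24.1% of all genes tested that were higher and 27.2% that were lower. Above background in the induced cells alone were 3 of the 16, against 2.18% of all genes. Cdhr5, a protocadherin of the intestinal brush border 1533 bases from Sct, read 17.6, 18.9 and 15.7 in induced cells and was below the limit on all other arrays, at least 1.94-fold higher than in islets. Kcnc1, a potassium channel gene 205934 bases from Tph1, was at least 2.54-fold higher and Igf2bp1, an RNA-binding protein gene 18587 bases from Gip, at least 1.53-fold. These 3 genes, among the 6 called higher, passed the filter through the induced arrays alone. Their p-values are therefore left out and their calls are not read as a result. Saa3, on the other side of Tph1 at 39460 bases, was not called (-0.04). Hap1, the neighbour of Gast at 10329 bases, was lower in induced cells (log2 difference -0.62, limma adjusted p = 0.000247).

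The genes whose profile over the 9 arrays was most like each bright member were sought by the root mean square difference of log2 signals after centring each gene. For Gast these were Lcn2, an acute-phase gene of injured epithelium (0.185), Pdrg1 (0.259) and Tgif1, a homeodomain repressor (0.302). For Cck they were the lens crystallin gene Crybb3 (0.166), Pdrg1 (0.170) and Tmem45b (0.242). For Tph1 they were Amelx, an enamel matrix gene (0.261), the syntaxin gene Stx11 (0.276) and the cell cycle inhibitor gene Cdkn1a (0.296). Gip was closest to Amelx (0.172), Stx11 (0.212) and B2m (0.219), and Sct to Fam107a (0.135), the transferrin gene Trf (0.151) and Errfi1 (0.157). Pearson's r with these genes was 0.987 to 0.997 over the 9 arrays, which fall into 3 groups and share their scaling, so r mostly follows the group means. No other islet or gut hormone gene stood among these 15 places.

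Other genes of the enteroendocrine programme were then tested in 7 lists of 121 genes, 107 of them with a probe and 74 past the filter. Of all 15967 genes on the array 9937 passed it. Induced cells differed from islets in both directions: 22 of the 74 were higher, 27 lower and 25 not called, beside 24.1% higher and 27.2% lower over all genes, with a median log2 difference of -0.07 beside -0.03 over all genes. With the arrays scaled to equal noise the counts were 33 and 24. Against non-islet cells 50 were higher, 18 lower and 6 not called, where 40.7% of all genes were higher and 36.8% lower, with a median of 1.28 beside 0.07. Scaled to equal noise, 65 were higher and 2 lower. Between islets and non-islet cells the counts were 47 and 18 (60 and 5 at equal noise), where 41.4% of all genes were higher and 34.8% lower. The islet and induced samples share the non-islet arrays in these counts. The shares of 24.1% higher and 27.2% lower over all genes also stand beside each list's counts against islets below.

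**Figure D2:**
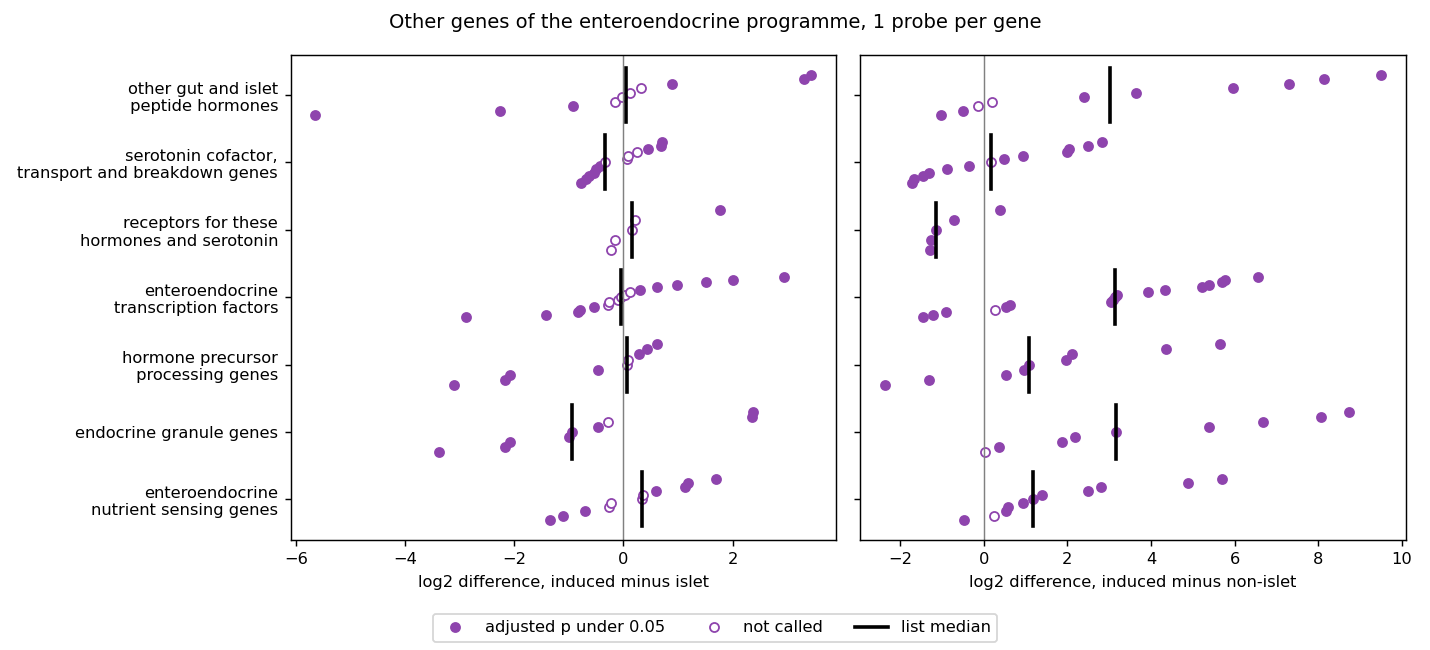
Log2 differences of the list genes past the filter, induced minus islet on the left and induced minus non-islet on the right, 1 point per gene. Filled points had an adjusted p under 0.05 and black bars are list medians. Against islets the lists spread to both sides of 0, from -5.64 (Ppy) to 3.44 (Npy).

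Of 19 hormone genes outside the group with a probe 10 passed the filter. Among these, 3 exceeded their islet level in induced cells, 3 fell short of it and 4 were not called. Npy, a neuropeptide of the pancreatic polypeptide family, read 725 ± 39.6 on induced and 58.3 ± 4.90 on islet arrays (SD, n = 3), and the log2 signals differed by 3.44 (SE 0.12, limma adjusted p = 2.59e-09). Gal, the galanin gene, read 2064 ± 32.3 against 235 ± 14.6 (3.30, limma adjusted p = 6.91e-10), but non-islet cells were higher still at 5034 ± 531, an order that reversed at equal noise (log2 0.30). Cartpt was higher by 0.90. Ppy, Gcg and Sst, the hormones of PP, alpha and delta cells, were lower at -5.64, -2.27 and -0.93, and at -4.28, -1.14 and -0.20 with arrays scaled to equal noise. Pyy, a hormone of L cells, was bright in both, at 5392 and 6279, and was not called (0.12, limma adjusted p = 0.365), although with the values as deposited it was lower (-0.22, limma adjusted p = 0.0100). Gut peptides with no probe past the filter in any group were Nts, Insl5, Vip, Adcyap1, Grp, Nmu, Uts2b, Guca2a and Guca2b.

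The serotonin pathway around Tph1 was present in islets as well. The list of its other enzymes and transporters also held Th and Hdc, of catecholamine and histamine synthesis. Of its 13 genes past the filter 3, Hdc among them, were called higher in induced cells relative to islets. A further 6, Th among them, were called lower and 4 were not called, with a median of -0.34. Over all genes 24.1% were higher and 27.2% lower. Ddc, the decarboxylase that makes serotonin from the product of Tph1, read 914 ± 15.9 in induced cells, 1357 ± 54.8 in islets and 52.0 ± 5.86 in non-islet cells, lower than in islets by a log2 difference of -0.77 (SE 0.11, limma adjusted p = 0.000125) and higher than in non-islet cells by 2.82. Gch1, which makes the hydroxylase cofactor tetrahydrobiopterin, was lower than in islets at -0.50 at its brightest probe (limma adjusted p = 0.0269), a call lost on leaving out 1 array (adjusted p up to 0.097) and with arrays scaled to a common median (adjusted p = 0.261) or to equal noise. The other kept probe of Gch1 was lower at -0.77 (limma adjusted p = 0.00522), and its call under those settings is not given here. Pts and Th, of cofactor and catecholamine synthesis, were lower at -0.68 and -0.62.

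Slc18a2, the vesicular monoamine transporter, was higher in induced cells than in islets by 0.70 (limma adjusted p = 0.000381), at 13.5 ± 2.38 against 4.06 ± 1.17. Maob, which breaks down monoamines, was higher by 0.44 at its brightest probe (limma adjusted p = 0.0024) and not called at its other kept probe (0.06). Hdc, the histamine-forming enzyme, was above background on the induced arrays and on no other, at 4.13 ± 1.28, a signal too low to be seen on the non-islet arrays, and was at least 1.13-fold over islets, with the call lost at a common median (limma adjusted p = 0.0760). Slc6a4, which takes serotonin back up, was above background in non-islet cells only (18.5 ± 0.905). So Tph1 was the member of this pathway with no signal in islets and a bright one in induced cells, while Ddc and Gch1 were bright in both.

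**Figure D3:**
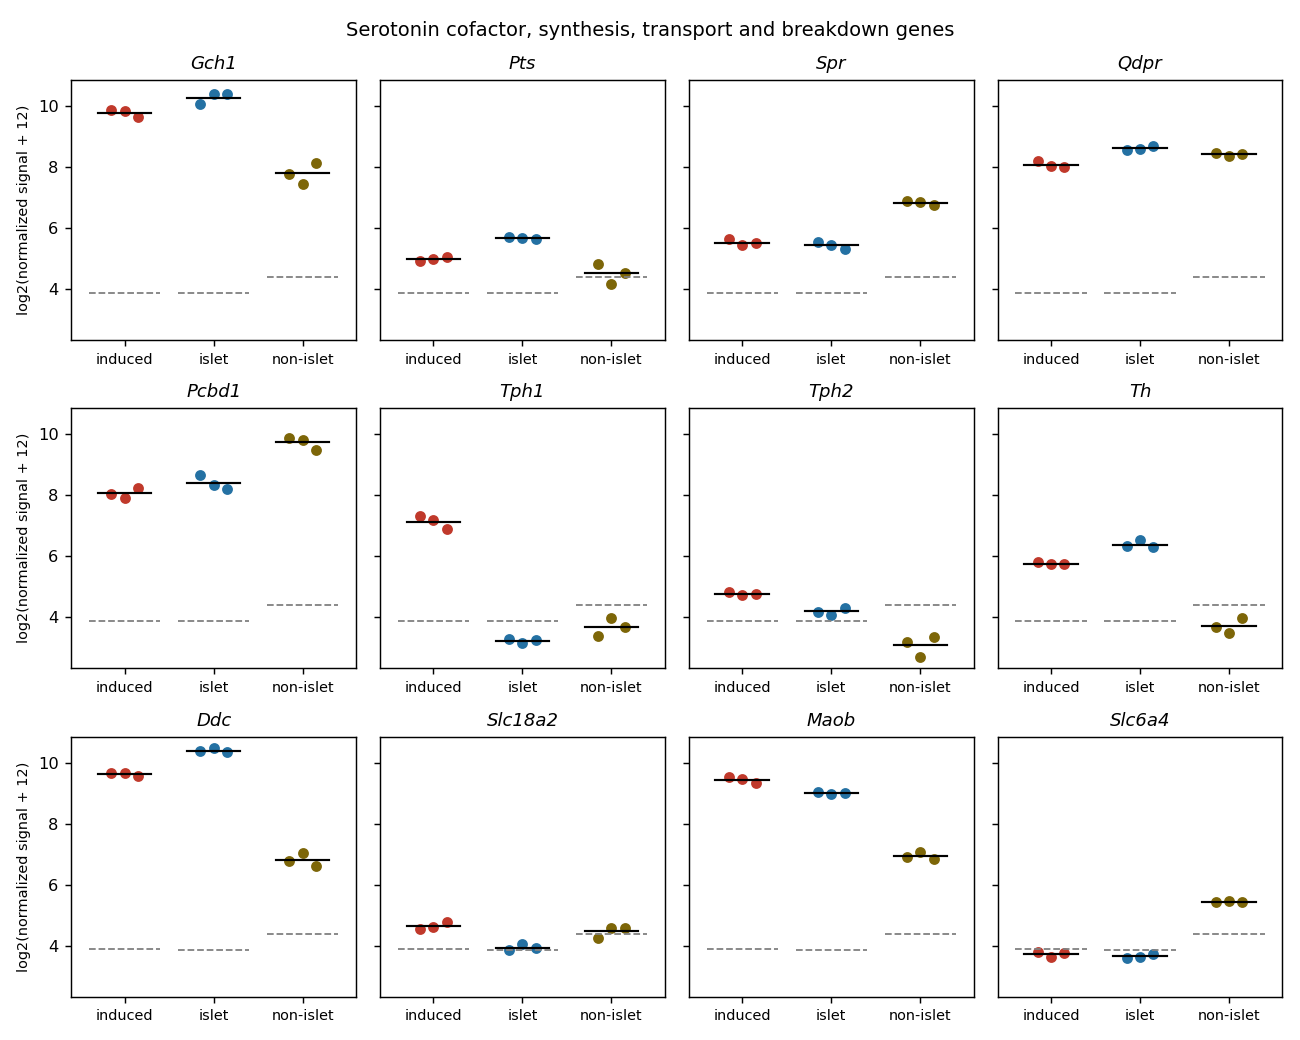
Serotonin cofactor, synthesis, transport and breakdown genes, with Th of catecholamine synthesis, on each array, as log2(normalized signal + 12). Points are arrays, black bars means of 3 arrays, and dashed grey lines the mean background limit of the group. Ddc, Gch1 and Maob are high in induced cells and islets, and Tph1 in induced cells.

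Of 14 receptors for these hormones and for serotonin with a probe 5 passed the filter, beside 9937 of 15967 genes over the whole array. Of the 5, 1 was higher in induced cells than in islets and 4 were not called. The one was Cckbr, the receptor shared by gastrin and cholecystokinin, which read 28.4 ± 2.27 in induced cells and -0.463 ± 0.424 in islets, at least 2.56-fold higher (limma adjusted p = 1.37e-06). It was also above background in non-islet cells, at 11.9 ± 3.16, where the difference to induced cells of 0.38 passed the threshold (adjusted p = 0.0305) and was lost at a common median (adjusted p = 0.244) and on leaving out 1 array. Ghsr, the ghrelin receptor, read 5.57 ± 0.837 and 10.8 ± 2.51 in induced cells and islets and was not called.

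Of 23 transcription factors of enteroendocrine cells with a probe 17 passed the filter, and of these 6 were higher, 5 lower and 6 not called against islets. Pdx1 was higher by 2.95 (2028 ± 36.5 against 293 ± 21.6, limma adjusted p = 1.45e-08), though whether the Pdx1 and Neurog3 probes detect transcripts of the virus is not settled by the sources used here. Gata4, a factor of foregut endoderm and of mouse K cells, was higher by 2.01 (limma adjusted p = 1.65e-07) and by 1.79 at its other probe, while non-islet cells had it too, at 78.5 ± 19.5, above induced cells in all but the scaling to equal noise. Etv1 was higher by 1.50 at its brightest probe and not called at 2 others (0.10 and 0.19). Foxa1 was seen in induced cells alone, at 10.8 ± 0.967, at least 1.55-fold over islets. Isl1 was lower at -2.88, Foxa2 at -0.83, and Neurog3 was above background on no induced array and at least 2.41-fold lower than in islets (limma adjusted p = 1.30e-05), a value that covers the viral copy only if the probe reads it. Insm1 and Rfx6, general endocrine factors, differed by -0.10 and 0.12 and were not called, the sign for Insm1 turning with the scaling. Neurod1, which in rodent cells drives the secretin promoter through an E-box, was higher by 0.62 (limma adjusted p = 0.0244), a call lost on leaving out 1 array (adjusted p up to 0.098).

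Genes that process hormone precursors had 3 of 9 higher and 4 lower. Pcsk1, a prohormone convertase gene, was higher at 11.3 ± 1.29 against 3.66 ± 1.21 (0.62, limma adjusted p = 0.000679), and Tpst2, a tyrosine sulfotransferase of the kind that modifies cholecystokinin and gastrin, by 0.44. The islet signal of Pcsk1 was near the limit, above background on 2 of 3 arrays. Pcsk1n, Scg5 and Pcsk6 were lower at -3.10, -2.17 and -2.08. Pam, which amidates the carboxyl end that gastrin, cholecystokinin and secretin need, read 23.8 and 24.4 in induced cells and islets and was not called (0.09). Of 9 endocrine granule genes 2 were higher, Stx1a by 2.38 and Chgb by 2.35, and 6 lower, led by Scg2 (-3.39), Rab3a (-2.16) and Resp18 (-2.07). Chga, the granin used as an enteroendocrine marker, was not called (-0.29), with a sign that turned at equal noise.

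Nutrient and peptide sensors of enteroendocrine cells split likewise, with 4 of 11 higher, 3 lower and 4 not called. Galr1, a galanin receptor of mouse enteroendocrine cells, read 52.3 ± 0.435 against 6.30 ± 0.845 in islets (1.69, limma adjusted p = 2.68e-06). The fatty acid receptor genes Ffar2 and Ffar4 were higher by 1.19 and 1.13, and a further one, Ffar1, was lower at -0.70. Gpr142 and Gpr119, an amino acid and a lipid receptor, were lower at -1.34 and -1.11.

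Markers of cells that make these products elsewhere were set beside the members. Of 5 measured enterocyte genes 2 (Vil1 and Cdx2) were above background in induced cells, and both were in the other groups too, while Cdx1, Fabp2 and Apoa4 were above it on no array. Their sum was 66.3 to 73.3 on induced, 111 to 125 on islet and 29.5 to 38.5 on non-islet arrays. Of 4 goblet cell genes Tff3, a secreted trefoil peptide, read 141, 168 and 161 in induced cells and was below the limit on all other arrays (at least 9.39-fold over islets), whereas Muc2, the defining mucin, and Clca1 were above it on no array. The goblet sum was 142 to 170 on induced, 2.33 to 5.26 on islet and 11.5 to 17.0 on non-islet arrays. Of 7 stomach genes, all 3 induced arrays showed Tff2 and Atp4a over background and 2 showed Pgc, while Gkn2, Tff1 and Muc6 were over it on no array of any group. Atp4a, a proton pump subunit, had a mean of 3.65 in induced cells and 15.1 in islets, and the pepsinogen gene Pgc 2.88 and 46.2. The list, carried by Tff2, summed to 3238 to 3715 on induced, 1771 to 2097 on islet and 20659 to 23595 on non-islet arrays.

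Mast cells and platelets also carry serotonin. Of 6 mast cell genes, the protease genes Tpsb2 (7.60, 7.71 and 23.9 as means of induced, islet and non-islet arrays) and Cma1 (3.63, 4.86 and 9.20) and the receptor gene Kit exceeded background on 3 of 3 induced arrays, and Cpa3, Mcpt4 and Ms4a2 on no array of any group. The list summed to 84.4 to 88.7 on induced, 30.4 to 38.8 on islet and 61.2 to 70.8 on non-islet arrays, and Kit made up most of it in induced cells (75.2, 75.2 and 78.9). Of 4 platelet genes Gp9 and Itga2b exceeded background on 3 of 3 induced arrays, Pf4 on none in any group and Ppbp on none but 1 non-islet array, with sums of 14.4 to 18.0 on induced, -4.15 to -1.96 on islet and -7.28 to -0.330 on non-islet arrays. Neuron genes summed to 60.7 to 73.5, 90.9 to 104 and 17.1 to 25.6 in the same order, with 3 of 5 above background on 3 of 3 induced arrays, Uchl1 at a mean of 58.0, Elavl4 at 8.16 and Snap25 at 4.63, and Stmn2 and Nefl on none of them. Of 5 tuft cell genes Avil was seen in induced cells alone (at least 1.71-fold over islets), Trpm5 was lower than in islets at -2.95, Dclk1 was above background on 3 of 3 induced and 3 of 3 islet arrays (means of 5.60 in both), Il17rb on 2 of 3 induced arrays, and Pou2f3, the tuft cell master regulator, on no array. The list summed to 115 to 129 on induced, 760 to 817 on islet and -1.47 to 5.61 on non-islet arrays. Duct genes summed to 2265 to 2428, 1077 to 1227 and 883 to 1008, and endothelial genes to 29.2 to 36.1, 1735 to 1822 and 159 to 193. Krt7 made up most of the duct sum in induced cells and islets (means of 1511 and 1069, and 13.4 in non-islet cells). Against non-islet cells Krt7 was higher in induced cells (5.44), Muc1 and Sox9 lower (-0.95 and -0.73), and Krt19 not called. The dim Cftr differed by 1.40, but its induced values (mean 4.26) lay under the limit of every non-islet array. A signal of that size could not have been seen there. The part of Tff3, Kit, duct and platelet genes, higher in induced samples than in islets, in the members' levels was not tested.

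**Figure D4:**
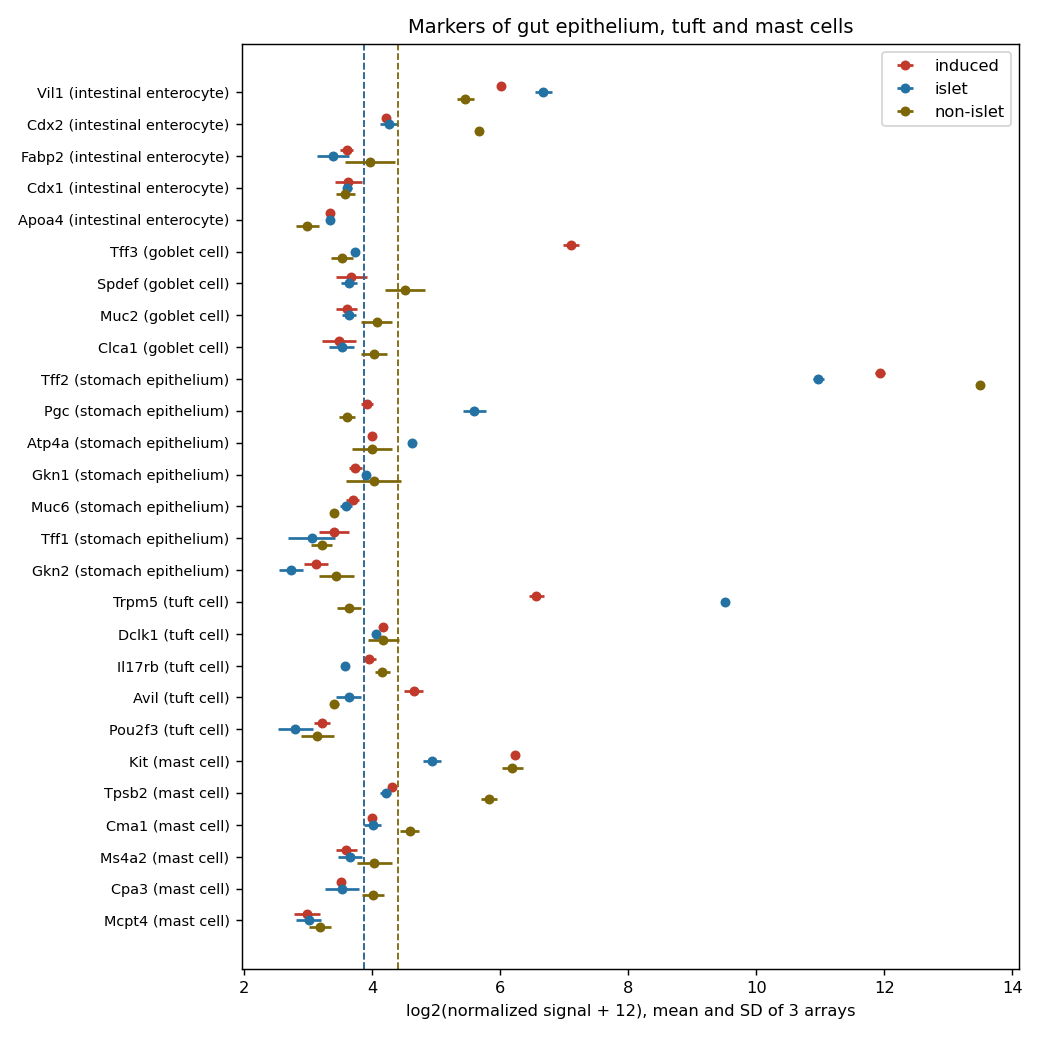
Markers of gut epithelium, tuft cells and mast cells as log2(normalized signal + 12), mean and SD of 3 arrays for each group. Dashed lines are the mean background limits, those of induced and islet arrays nearly coinciding on the left and that of non-islet arrays on the right. Tff3 is the gut marker with a bright signal in induced cells and none in the other groups, while Muc2, Cdx1, Fabp2 and Gkn2 lie at or under the limits.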

How the data were processed

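RNA of 9 samples in 3 groups of 3 had been extracted with trizol, amplified with a Total prep kit and labelled with biotin, per the labels' protocols. The authors made the deposited intensity values with BeadStudio (per the submitters' processing notes, where no version or setting is given). By their range and equal means they are linear, background-subtracted and scaled per array. A further deposited table, with 36 columns named by slide position that no label ties to a sample, was not used here.

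Values were quantile-normalized, 12 was added (the lowest value then being at least 1) and log2 was taken. The noise SD of an array came from its values below 0, mirrored. Probes above 1.64 noise SD (the one-sided 95% limit) on 3 of 3 arrays in some group, 13928 in number, were kept. Among all probes 20984 had 1 gene symbol, 1 several and 3628 none, and 20968 were matched by gene number to RefSeq (GRCm38.p6), with 0 symbols changed. For lists and neighbours the brightest kept probe stood for a gene. A group with no array above background is given as a bound: the mean of the bright group over the mean, per array, of the lowest log2 signal above background or the probe's own if higher. Tests used limma 3.58.1 (a linear model with moderated variances, all 9 arrays, 6 residual degrees of freedom, two-sided, Benjamini-Hochberg over kept probes, threshold 0.05) in R 4.3.3, tested on simulated data. Motifs were searched in Python 3.11.15. The number of arrays limits the precision.

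The members and lists were chosen with earlier results of these data known. Named from each list were up to 3 genes called higher and 3 called lower than in islets by size, with others of known role, and for each bright member the 3 most alike genes. The gene neighbours were added after the data were seen. Alternatives were other offsets, scalings, filters, variance models, a replicate block, the compared groups alone, any probe of a gene and leaving out each array.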

Additional observations from a re-analysis of the deposited data

How the results depend on the processing

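Scaling moved the counts most, above all against the noisier non-islet arrays. With arrays scaled to equal noise, probes called higher rose from 3138 to 5152 (induced minus islet), from 5518 to 11043 (induced minus non-islet) and from 5645 to 11147 (islet minus non-islet), probes called lower in the latter comparisons dropped from 5091 to 574 and from 4756 to 667, and list genes called lower from 18 to 2 and from 18 to 5. With the values as deposited, induced minus non-islet gave 3138 probes lower, and islet minus non-islet 8702 higher and 2580 lower. The median log2 difference over all genes, 0.07 between induced and non-islet cells, was 0.32 as deposited and 1.17 at equal noise. Without the filter, 30 list genes were lower in induced than in non-islet cells. Of the list genes called between induced cells and islets 7 of 49 lost the call under some scaling and 5 without 1 array, and 0 turned sign with a call. Against non-islet cells 13 of 68 lost it, 2 without 1 array, and 9 turned sign with a call. The 10 differences of Cck, Gast, Gip, Sct and Tph1 from the other groups kept their sign in every setting run, at 1.40 to 2.89 with an offset of 50, 2.98 to 5.03 at equal noise and 2.51 to 5.16 without 1 array. Leaving out 1 array gave 2736 to 3413 probes higher and 3070 to 4023 lower in induced cells than in islets, and 19 to 25 and 25 to 28 list genes. Replicate numbers did not pair the samples: deviations of same-numbered arrays correlated at -0.12 to 0.19, and in 5 of 18 cases an array correlated best with its own number. With the replicate block, induced minus islet gave 21 list genes higher and 28 lower. Array noise limits the dimmest signals, as for Tac1 and both Ghrl probes.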
